A study of Solanum lycopersicum with 30 samples.

Results

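PSBR and THF1 are symbols of chloroplast proteins on a cDNA array. The array was used to compare tomato (Solanum lycopersicum) leaves challenged with tobacco mosaic virus (TMV) and mock-treated leaves. The genes were taken as the array rows whose only symbol in the platform annotation is PSBR or THF1, which gave 2 of 430 genes and 7 of 815 clones with a single symbol. PSBR was carried by 6 clones and THF1 by 1, each printed as a pair of spots that were averaged. The clones were then averaged by gene, and each clone is also shown alone.

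PSBR is a small subunit of photosystem II in the thylakoid membrane, where it helps to hold the proteins of the oxygen-evolving complex. THF1, thylakoid formation 1, is a plastid protein needed for the build-up of thylakoid membranes and for the upkeep of photosystem II in Arabidopsis. Chloroplast proteins have been tied to tobacco mosaic virus before: in Nicotiana benthamiana, PsbO of the oxygen-evolving complex was reported as a partner of the viral replicase, and THF1 as a partner of N', a tobacco resistance protein distinct from N.

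Each of the 30 arrays compared a TMV-treated and a mock-treated plant of the same genotype and time. The susceptible genotype (n) lacks N, a resistance gene from tobacco; the resistant genotype carries N; and sun1-1 is a mutant in the N background with enhanced susceptibility. Plants were 28 to 35 days old and grew at 25 °C in a day of 16 h light and 8 h dark. Their leaves were taken at 3, 9 or 27 h after TMV-carrying sap or, for the mock, leaf sap. RNA was prepared from individual plants, with 3 arrays for every susceptible and sun1-1 group and 4 for every resistant group. On resistant 9 h replicate 4 and resistant 27 h replicate 4, the protocol of the TMV channel named 3 h and 9 h, and these arrays were grouped by their titles.

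The values are log2 ratios of the TMV channel (Cy3) and the mock channel (Cy5), with medians of the arrays from -0.0145 to 0.1113. Which of the channels was divided by the other is not given in the labels, and dyes were never exchanged. A positive value can therefore stand for a higher signal in either the TMV or the mock plant. Signs are given as deposited. If the direction were the other, the signs of all ratios and their differences below would turn together. Sizes, tests and correlations with their signs would stay. A ratio holds no level, so neither the abundance of these transcripts nor the leaf identity of the samples could be read from it, and fewer cells of a type and less RNA per cell cannot be told apart. A dye effect of a clone is part of each ratio and cancels in differences of that clone between genotypes or times. In the PSBR average it need not cancel, because the clones with a value differed between arrays.

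The arrays held values for 1970 to 9164 features, a feature being a gene average or a clone without a single symbol. The SD of the ratios on an array ran from 0.22 to 1.34 with a median of 0.36, and the widest was sun1-1 3 h replicate 3. Arrays of a group could run in opposite directions: resistant 27 h replicates 1 and 2 correlated at r = -0.38 across features, and the 3 pairs of sun1-1 9 h arrays at -0.13, -0.12 and -0.10. The number of arrays per group limits the precision of every mean.

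In susceptible leaves PSBR read 0.48, 0.05 and -0.10 at 3 h on replicates 1, 2 and 3. At 9 h it read -0.50, 0.30 and 0.06, and at 27 h -0.91, -0.74 and 0.22. Every one of these groups spanned 0. The group means were 0.14 (SD 0.30, n = 3) at 3 h, -0.05 (SD 0.41, n = 3) at 9 h and -0.48 (SD 0.61, n = 3) at 27 h, each smaller than its SD. By limma with Benjamini-Hochberg adjustment over all features, the adjusted p-values were 0.995, 1 and 0.746. The 27 h mean was -0.83 without replicate 3 (limma adjusted p = 0.290) and -0.26 without replicate 1. Of 7889, 6871 and 6521 features tested at these times, 0% passed an adjusted p of 0.05.

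THF1 in susceptible leaves read 0.15, -0.04 and -0.63 at 3 h. At 9 h its values were -0.30, -0.14 and -0.25, and at 27 h -0.41, 0.04 and 0.10. The 9 h arrays were all negative and close together, with a mean of -0.23 (SD 0.08, n = 3, limma adjusted p = 1). The other means were -0.17 (SD 0.41, n = 3) at 3 h and -0.09 (SD 0.28, n = 3) at 27 h, with limma adjusted p = 0.995 and 0.954. No susceptible array took THF1 to a 2-fold ratio.

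In resistant leaves PSBR was positive on 3 of 4 arrays at 3 h, with 0.37, 0.53, -0.14 and 0.27 on replicates 1 to 4. At 9 h it read 0.41, 1.29, -0.08 and 0.19, and at 27 h 0.53, -1.25, 0.03 and -0.07. Replicate 2 thus held the highest value of the 9 h group and the lowest of the 27 h group, and the remaining 27 h values lay between -0.07 and 0.53. The means were 0.26 (SD 0.28, n = 4), 0.45 (SD 0.60, n = 4) and -0.19 (SD 0.75, n = 4), with limma adjusted p = 0.787, 0.860 and 0.966. Without replicate 2 the 9 h mean was 0.17 and the 27 h mean 0.16. In these groups 0% of 5793, 5386 and 6518 features passed.

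THF1 was negative on all 4 resistant arrays at 3 h, with -0.23, -0.60, -0.09 and -0.53. At 9 h it read -0.52, 0.08, 0.32 and -0.06, and at 27 h 0.86, -0.77, 0.02 and -0.73. Its mean at 3 h was -0.37 (SD 0.24, SE of the fit 0.20, n = 4, unadjusted p = 0.0787, limma adjusted p = 0.541), the lowest of its 9 group means. At 9 h the mean was -0.04 (SD 0.35, n = 4) and at 27 h -0.15 (SD 0.77, n = 4), with limma adjusted p = 0.985 and 0.952. The 27 h group held both the highest and the lowest THF1 value of the study.

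In sun1-1 leaves PSBR was negative on all arrays at 3 h, at -0.09, -0.36 and -1.71. At 9 h it read -0.40, -0.42 and 1.54, and at 27 h 0.28, 0.36 and 0.23. The 27 h arrays were the closest of any PSBR group, with a mean of 0.29 (SD 0.07, n = 3, limma adjusted p = 0.859). The 9 h group had the widest SD, with a mean of 0.24 (SD 1.12, n = 3, limma adjusted p = 1) that was -0.41 without replicate 3. The 3 h mean was -0.72 (SD 0.87, SE of the fit 0.33, n = 3, unadjusted p = 0.0402, limma adjusted p = 0.422). With replicate 3 left out it was -0.23 on 2 arrays. On that replicate, whose ratios spread the most of all arrays, PSBR was at percentile 6.12. The tests covered 6775, 7576 and 7390 features, of which 0% passed.

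THF1 in sun1-1 leaves read 0.17 and -0.19 at 3 h and had no value on replicate 3. It read 0.04, -0.47 and 0.51 at 9 h, and 0.08, -0.25 and -0.36 at 27 h. These groups all spanned 0, with means of -0.01 (SD 0.26, n = 2), 0.03 (SD 0.49, n = 3) and -0.18 (SD 0.23, n = 3). The limma adjusted p-values were 0.998, 1 and 0.880.

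**Figure D1:**
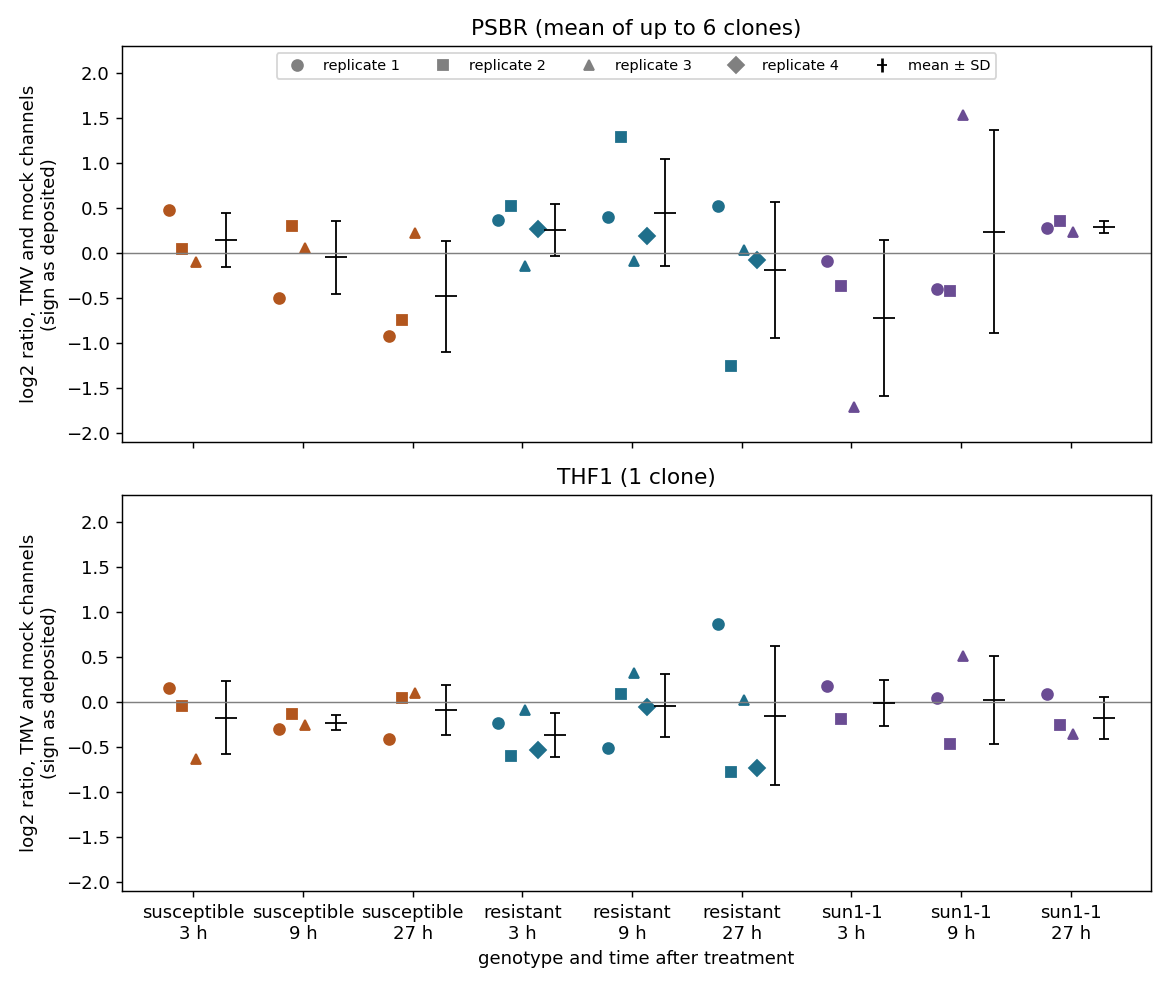
Log2 ratio of the TMV and mock channels (vertical axis, sign as deposited) of PSBR (upper panel) and THF1 (lower panel) on each array, by genotype and time (horizontal axis). Symbols are arrays by replicate number and black bars are group means ± SD; PSBR runs from -1.71 to 1.54 and THF1 from -0.77 to 0.86, and most groups span 0.

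Ordered by its mean, PSBR ran from sun1-1 3 h at -0.72, over susceptible 27 h at -0.48, resistant 27 h at -0.19, susceptible 9 h at -0.05, susceptible 3 h at 0.14, sun1-1 9 h at 0.24, resistant 3 h at 0.26 and sun1-1 27 h at 0.29, to resistant 9 h at 0.45. Every neighbouring pair in that order overlapped in its arrays. THF1 ran over a narrower range, from resistant 3 h at -0.37 to sun1-1 9 h at 0.03, and its neighbours overlapped too. The SD of the 9 group means was 0.39 for PSBR and 0.12 for THF1, below the pooled SD between arrays of a group, which was 0.63 for PSBR and 0.42 for THF1.

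Of the 36 pairs of groups, 3 did not overlap for PSBR and 0 for THF1. The sun1-1 27 h arrays (0.23 to 0.36) lay above the susceptible 27 h arrays (-0.91 to 0.22), a separation that 20.9% of 5841 features also had in one direction or the other. They also lay above the sun1-1 3 h arrays (-1.71 to -0.09), as groups did for 21.3% of 6147 features, and 7.66% had, like PSBR, all arrays of one group positive and all of the other negative. The resistant 9 h arrays (-0.08 to 1.29) lay above those of sun1-1 3 h with the nearest values almost equal, and 20% of 5083 features were separated there. Read against these shares, separation of small groups was common on the array.

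The comparison of genotypes at 1 time asked whether the presence of N, or the sun1-1 mutation on top of it, went with another ratio. The largest difference of PSBR was that of resistant minus sun1-1 at 3 h, at 0.98 (SE 0.44, 95% interval 0.07 to 1.88, unadjusted p = 0.0358, limma adjusted p = 0.761). It was 0.48 without sun1-1 3 h replicate 3. Sun1-1 minus susceptible was -0.86 at 3 h (SE 0.47, interval -1.83 to 0.11, limma adjusted p = 0.938) and 0.77 at 27 h (SE 0.47, interval -0.20 to 1.74, limma adjusted p = 0.521). The latter was 1.15 without replicate 3 (limma adjusted p = 0.189) and 0.56 without replicate 1. Resistant minus susceptible was 0.11 at 3 h, 0.50 at 9 h and 0.29 at 27 h, with limma adjusted p = 1, 0.848 and 0.962. The remaining PSBR differences were 0.21 (resistant minus sun1-1, 9 h), 0.29 (sun1-1 minus susceptible, 9 h) and -0.48 (resistant minus sun1-1, 27 h).

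For THF1 the differences between genotypes were smaller, from -0.36 (resistant minus sun1-1, 3 h; SE 0.35, interval -1.07 to 0.35, limma adjusted p = 0.944) to 0.26 (sun1-1 minus susceptible, 9 h; SE 0.33, interval -0.41 to 0.93, limma adjusted p = 0.981). No THF1 difference between genotypes had an unadjusted p under 0.05. Both genes were tested in 9 such comparisons over 5196 to 6524 features, with 0% called in each. Intervals of this width leave differences of more than 2-fold possible for PSBR, and for THF1 in resistant minus sun1-1 at 3 h.

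Over the times, PSBR gave a moderated F of 0.91 in susceptible, 1.30 in resistant and 2.92 in sun1-1 leaves, with limma adjusted p = 0.978, 0.799 and 0.686. The F of THF1 was 0.10, 0.68 and 0.21, with limma adjusted p = 0.999, 0.863 and 0.969. The features tested were 5647, 4729 and 5989, and 0% were called in each genotype. The F of PSBR in resistant leaves ran from 0.0001 without replicate 2 to 3.31 without replicate 3. Neither gene had an unadjusted p under 0.05 for a change over the times, the lowest being 0.0715 for PSBR in sun1-1.

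Averaged over the 3 genotypes, PSBR stood at -0.11 at 3 h (SE 0.18), 0.21 at 9 h (SE 0.18) and -0.13 at 27 h (SE 0.18), with limma adjusted p = 0.783, 1 and 0.873. THF1 stood at -0.18 (SE 0.14), -0.08 (SE 0.13) and -0.14 (SE 0.13), with limma adjusted p = 0.492, 1 and 0.791. THF1 was thus below 0 at every time and within its 95% interval of 0, the interval at 3 h running from -0.47 to 0.10. At 3 h limma called 5 of 5357 features, or 0.0933%, and neither gene was among them; at 9 h and 27 h, and for the differences between the times, 0% were called. The difference 9 h minus 3 h was 0.32 (SE 0.26) for PSBR and 0.10 (SE 0.19) for THF1. From 9 h to 27 h PSBR differed by -0.34 (SE 0.26) and THF1 by -0.06 (SE 0.18), and from 3 h to 27 h by -0.02 and 0.04.

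Across all 27 comparisons, 0 of 54 tests of the genes passed, and 2 had an unadjusted p under 0.05, both for PSBR and both resting on the sun1-1 3 h group. By limma 732 of 6775 features reached that level in sun1-1 leaves at 3 h, and 348 of 5404 for resistant minus sun1-1 at 3 h. The lowest adjusted p was 0.422. PSBR reached a 2-fold ratio on 4 of 30 arrays and THF1 on 0 of 29. Within the features of each array, PSBR lay in the outer 5% on 2 of 30 arrays and THF1 on 2 of 29. The lowest PSBR ratio, on sun1-1 3 h replicate 3, was at percentile 6.12 of that array.

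Clones 2, 3, 4 and 6 had values on 28, 28, 29 and 30 arrays, and their duplicate spots correlated at r = 0.96 to 0.99. Between these clones r was 0.79 to 0.98 over 26 to 29 arrays, the closest being clones 4 and 6. All those measured had the same sign on 23 of 30 arrays. For these 4 clones the pooled SD was 0.10 between duplicate spots, 0.24 between clones on an array and 0.73 between arrays of a group for their mean. The median SD between the clones on an array was 0.14. The spread between arrays, each a different pair of plants, was thus the widest of the 3, and whether plant, RNA or labelling carried it was not tested.

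On sun1-1 9 h replicate 3, the highest PSBR value, clones 2, 3, 4 and 6 read 2.0, 1.76, 1.87 and 1.94. On replicates 1 and 2 of that group the same clones lay between -0.76 and -0.26. The gene average of replicate 3 was at percentile 99.61 of its array. On resistant 9 h replicate 2 the 4 clones read 1.30, 1.11, 1.63 and 1.70, and the average was at percentile 98.76. On resistant 27 h replicate 2, clones 2, 4 and 6 read -0.94, -1.34 and -1.47, at percentile 2.53, and clone 3 had no value. Within these groups the same clones thus gave a large ratio together on 1 plant pair and smaller or opposite ratios on the others.

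The 4 clones parted on sun1-1 3 h replicate 3, where clones 3 and 6 read -2.29 and -2.25, clone 2 read -0.58 and clone 4 had no value. The SD between clones there was 0.97, against at most 0.38 on any other array. That array had the lowest gene average of PSBR.

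Clones 1 and 5 did not follow the other 4. They had values on 14 and 19 arrays, and clone 1 had both of its spots on 1 array only. With each other they correlated at r = 0.91 over 13 arrays, but with clones 2, 3, 4 and 6 only at -0.07 to 0.40. They opposed the other 4 in sign on 8 of the 20 arrays with both kinds of clone, and the means of both kinds correlated at r = 0.23. These correlations have no test, since the clones share arrays and were set apart after their values were seen. The files give no sequence or clone name, so whether clones 1 and 5 carry the same transcript as the others was not tested.

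The gap was over 1 on the log2 scale on 3 arrays. On resistant 3 h replicate 2, clones 1 and 5 read 1.84 and 1.35 while the mean of the other 4 was -0.01. On sun1-1 3 h replicate 2 they read -1.69 and -0.73 against 0.06, and on sun1-1 9 h replicate 3 clone 5 read 0.11 against 1.89. The averages of PSBR on these arrays are therefore means of unlike values. From clones 2, 3, 4 and 6 alone, sun1-1 3 h averaged -0.58 (SD 0.97, n = 3), and resistant minus sun1-1 at 3 h was 0.75 (limma adjusted p = 0.872). Other values grew in size with these clones. Susceptible 27 h was -0.62 in place of -0.48 (limma adjusted p = 0.713). Sun1-1 minus susceptible at 27 h was 1.04 in place of 0.77 (limma adjusted p = 0.451).

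**Figure D2:**
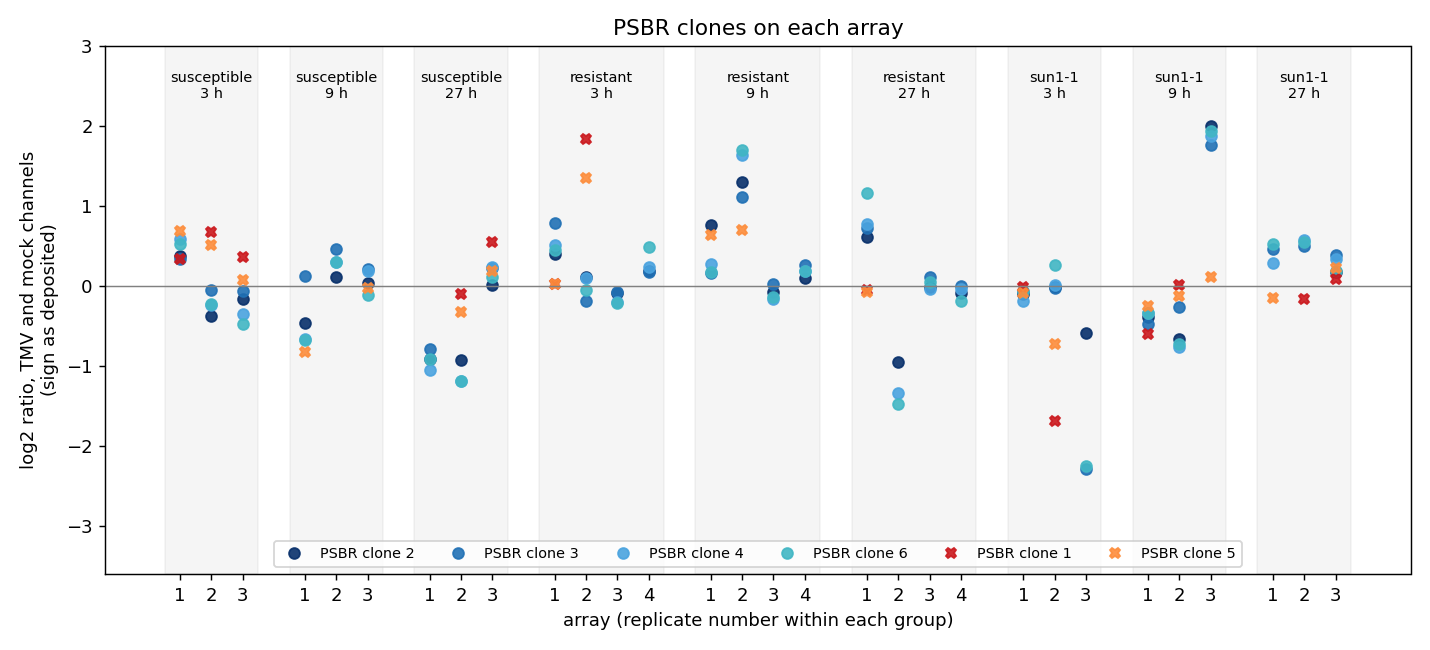
Log2 ratio (vertical axis, sign as deposited) of each PSBR clone on each array, with arrays by replicate number along the horizontal axis and grey bands for the 9 groups. Circles are clones 2, 3, 4 and 6, which lie together on most arrays, between 1.76 and 2.0 on sun1-1 9 h replicate 3; crosses are clones 1 and 5, which lie apart from them on resistant 3 h replicate 2 and sun1-1 3 h replicate 2.

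Tested clone by clone, the 7 clones gave 160 tests, of which 0 passed and 11 had an unadjusted p under 0.05. All 11 were of clones 1, 3 or 5. In the fit by gene, limma gave such a p to 732 of 6775 features in sun1-1 leaves at 3 h. For resistant minus sun1-1 at 3 h it did so for 348 of 5404. The rest of the 11 fell in other comparisons. In resistant leaves such a p went to 562 of 5793 features at 3 h and 338 of 5386 at 9 h. It went to 326 of 6524 for sun1-1 minus susceptible at 3 h, and to 360 of 5196 for resistant minus susceptible at 9 h. For the change over the times in sun1-1 leaves it went to 442 of 5989. The lowest unadjusted p was that of clone 1 for resistant minus sun1-1 at 3 h, at 1.78 (SE 0.57, limma adjusted p = 0.722). The lowest adjusted p was 0.392, for clone 3 in sun1-1 leaves at 3 h, with a value of -0.79 (SE 0.35).

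**Figure D3:**
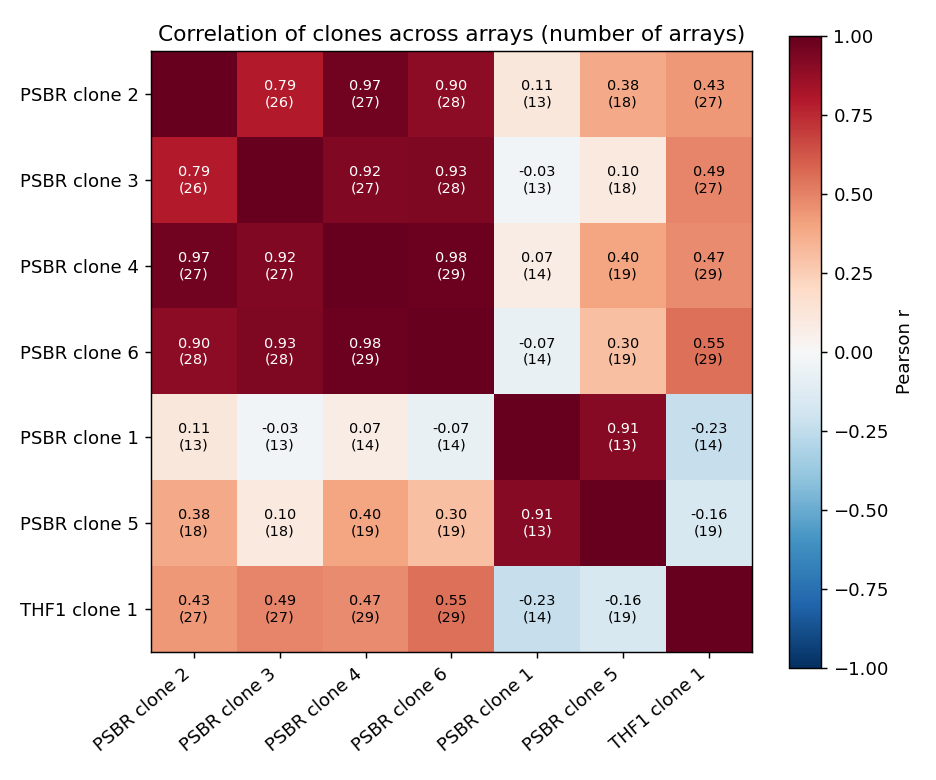
Pearson r across arrays between the PSBR clones and the THF1 clone, with the number of shared arrays in brackets and colour from -1 (blue) to 1 (red). Clones 2, 3, 4 and 6 form a block at 0.79 to 0.98, clones 1 and 5 a pair at 0.91, and the THF1 clone lies between 0.43 and 0.55 with the block.

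Among 302 genes with a pooled SD between arrays of a group on at least 15 degrees of freedom, PSBR ranked 31 from the widest and THF1 ranked 112. The median gene had an SD of 0.36. Without sun1-1 3 h replicate 3, PSBR had an SD of 0.58 and ranked 27. PSBR was thus among the genes with a wider spread between arrays of a group, also with that array left out.

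**Figure D4:**
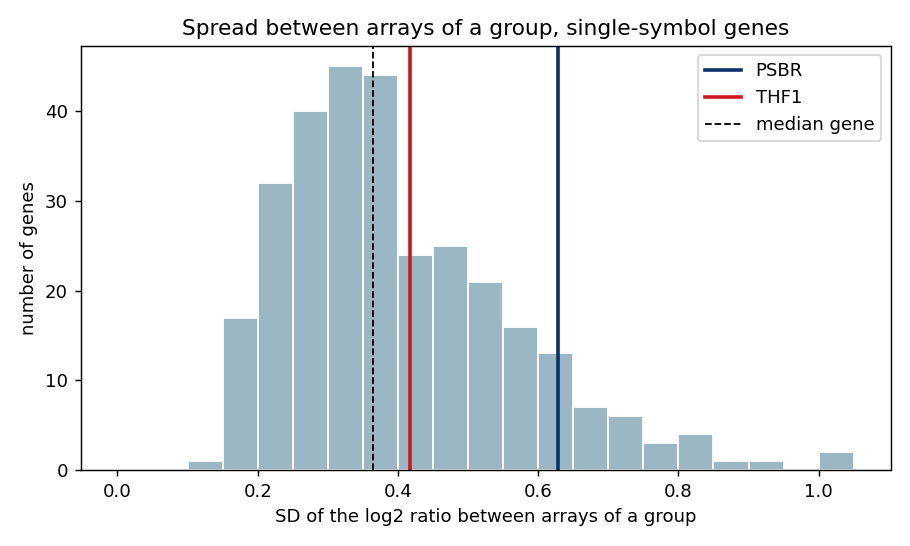
Number of genes (vertical axis) by the pooled SD of the log2 ratio between arrays of a group (horizontal axis), for 302 genes with a single symbol. The dashed line is the median gene at 0.36, and the coloured lines are THF1 at 0.42 and PSBR at 0.63.

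On the same arrays PSBR and THF1 correlated at r = 0.43 over 29 arrays (permutation p = 0.0201, adjusted p = 0.161 over 16 values) and at a Spearman rho of 0.30 (permutation p = 0.113, adjusted p = 0.201). Without the 2 arrays farthest from the PSBR median, a step that also narrows its range, r over all arrays was 0.19. Within times r was -0.16 at 3 h, 0.54 at 9 h and 0.57 at 27 h, and within genotypes 0.41 in susceptible, 0.38 in resistant and 0.64 in sun1-1 leaves. The same step gave -0.24 at 3 h, -0.07 at 9 h and 0.30 at 27 h. Within susceptible leaves it gave 0.66, within resistant leaves 0.04 and within sun1-1 leaves -0.31. With the group means taken out r was 0.52 (permutation p = 0.00365, adjusted p = 0.0584), or 0.38 without the 2 farthest arrays. No value of this family passed an adjusted p of 0.05. By clone, THF1 correlated at 0.43 to 0.55 with clones 2, 3, 4 and 6 and at -0.23 and -0.16 with clones 1 and 5.

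**Figure D5:**
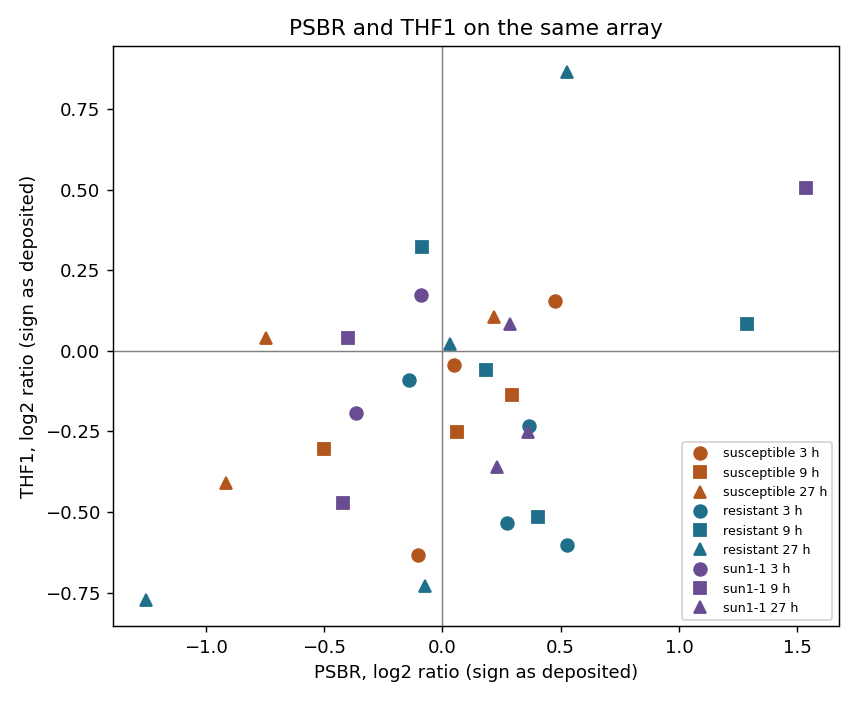
PSBR (horizontal axis) against THF1 (vertical axis), both as log2 ratios with the sign as deposited, on the 29 arrays with both; colour gives the genotype and symbol the time. The arrays at either end of PSBR, -1.25 and 1.54, have THF1 at -0.77 and 0.51, and the middle of the cloud shows little order (r = 0.19 without the 2 farthest arrays).

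The genes whose ratios were most like PSBR across arrays were LOC102577779 (r = 0.81, 30 arrays), IAA2 (r = 0.81, 29 arrays) and FLS (r = 0.76, 30 arrays), of 334 genes with at least 20 shared arrays. With clones 2, 3, 4 and 6 alone they were IAA2 and FLS at 0.78 each and LOC102577570 at 0.77, with LOC102577779 next at 0.76. THF1 stood at rank 35 of these 334 genes. Most like THF1 were LOC102585483 (r = 0.75, 27 arrays), LOC102577458 (r = 0.72, 29 arrays) and LOC102602939 (r = 0.67, 28 arrays) of 332 genes, where PSBR stood at rank 41. These are descriptions, since the genes share the arrays and their plants.

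Few other chloroplast genes were recognized by symbol, and the symbols looked for were not a full list of plastid genes. Of the 430 single symbols, 339 were LOC numbers and 91 were names, and other clones had no single symbol. A list of photosystem, light-harvesting, Calvin cycle, chlorophyll, carotenoid and plastid starch symbols matched 6, of which 4 were neither PSBR nor THF1. GBSS, granule-bound starch synthase, which makes amylose, ran from -1.41 to 1.01 on 30 arrays with a median of 0.01. R1, glucan water dikinase, which phosphorylates starch, ran from -1.36 to 0.43 on 29 arrays with a median of -0.08. STP-1, named as a starch phosphorylase, had a value on 9 arrays with a median of -0.39, and SS16, matched by its letters alone, had a median of 0.10 on 30 arrays.

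For GBSS, R1 and SS16, 0 of 27 tests each passed in either direction, and 0 of 4 tests for STP-1, with 0 at an unadjusted p under 0.05. The median over the 6 symbols was -0.03, beside 0.01 over 424 genes. The photosystem II subunit was thus the only one of its complex that could be followed under a single symbol of that list.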

How the data were processed

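Leaf RNA of 30 TMV and mock plant pairs was measured on 2-colour arrays, with 25 µg of RNA labelled per sample per the labels. The deposited values are log2 ratios, and limma, with no version, is the tool in the submitters' processing notes. How the arrays were scanned, background-corrected, normalized and filtered is not given in the sources used. In sun1-1 27 h replicate 2 the values sat 1 row off those of the other arrays and were moved back.

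All 905 annotated pairs of duplicate spots followed 1 layout, which gave 15360 clone pairs from 32448 spots. Spots were averaged by clone and clones by single symbol, and each other clone was a feature of its own (12212 features). A model with 1 mean per group was fitted with R 4.3.3 and limma 3.58.1 (prior degrees of freedom 5.66, prior SD 0.32). A feature needed 2 arrays in each group compared. P-values were adjusted by Benjamini-Hochberg over all features of each of 27 comparisons, with a threshold of 0.05. The fit was tested on simulated data. All groups share 1 residual spread per feature, so an SE understates the error of a group with a wide SD.

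Correlations used 100000 permutations, two-sided. Likeness was Pearson r over at least 20 shared arrays, and the 3 highest genes were named. The members, lists and tests were chosen with earlier results of these data known. The alternatives changed centring, scaling, weights, filters, averaging, the displaced column, the replicate block and the arrays used. None of the 430 gene identifiers of the platform was in the tomato gene table (0 matched), so the species of the clones is not established here. That table held 1 gene with the symbol PSBR, matched by spelling, so symbols are those of the platform and functions are those of the symbol. Sequences were not used here.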

Additional observations from a re-analysis of the deposited data

Results flagged for a closer look

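PSBR in sun1-1 leaves was negative on all arrays at 3 h and positive on all at 27 h, a difference of 1.01 on the log2 scale between the group means. The pair of times was not tested alone, and the moderated F over the times did not pass (limma adjusted p = 0.686). Arrays on opposite sides of 0 in these groups were found for 7.66% of 6147 features. Without replicate 3 at 3 h the mean there was -0.23 in place of -0.72. Dixon's test was run only on sets of 4 arrays, which are all of resistant leaves, and no array stood out in the 20 sets. The sun1-1 groups, with 3 arrays each, were not tested, so it says nothing about replicate 3 at 3 h.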

How the results depend on the processing

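Across 18 settings, 885 values of 55 results were recomputed. Of these, 824 kept their side of the threshold and, except for the F tests, which have no sign, their direction. Another 60 changed sign, and 1, the correlation of PSBR and THF1, rose above 0.05 in its unadjusted p. Many settings could not change a value, so the 824 is no measure of robustness. PSBR at susceptible 3 h, for example, stayed at 0.14 when a sun1-1 27 h array was left out. No test of either gene passed under any setting, the lowest adjusted p being 0.0999 for PSBR in sun1-1 leaves at 3 h without replicate 1. The cause of the changes of sign was not tested.

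For PSBR, susceptible 3 h was -0.0091 from clones 2, 3, 4 and 6 (a setting chosen after seeing the data) and -0.0577 from clone 6. Susceptible 9 h was 0.0174 with scaled arrays and 0.0216 with array weights, and with weights sun1-1 9 h was -0.0582 and sun1-1 minus susceptible at 9 h -0.0797. The mean of genotypes at 3 h was 0.0269 scaled, 0.0272 weighted and 0.0574 without sun1-1 3 h replicate 3. Its 27 h minus 3 h difference was 0.0854 with the spot median, 0.0331 from those 4 clones and 0.0735 from clone 6. For THF1, scaling gave 0.0567 at sun1-1 3 h, -0.0788 at sun1-1 9 h and 0.0541 for resistant minus sun1-1 at 9 h, and weights gave 0.0106, -0.114 and 0.0995, and -0.0210 for the mean 27 h minus 3 h. Without the fourth resistant arrays at 9 and 27 h, resistant 27 h was 0.0377, resistant minus susceptible at 27 h 0.126 and the mean 27 h minus 9 h 0.0050. Resistant minus sun1-1 at 27 h was -0.0326 with the displaced column as deposited and -0.0160 without it. The correlation of PSBR and THF1 was 0.36 with scaled arrays (permutation p = 0.0572).

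Replicate numbers did not pair the arrays: same-numbered arrays of different groups had a mean r of -0.02, other pairs 0.007, and 5 of 30 arrays correlated best with their own number. With the replicate block THF1 was -0.0589 at sun1-1 9 h, 0.0172 for resistant minus sun1-1 at 9 h and 0.0190 for resistant minus susceptible at 27 h.

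Leaving out each replicate number in turn, PSBR ran over resistant 27 h -0.432 to 0.162, sun1-1 9 h -0.408 to 0.569, susceptible 3 h -0.0252 to 0.263, susceptible 9 h -0.219 to 0.179, mean at 27 h -0.257 to 0.0244, mean at 27 h minus 3 h -0.399 to 0.206. It further ran over mean at 3 h -0.28 to 0.142, mean at 9 h minus 3 h -0.103 to 0.681, resistant minus sun1-1 at 9 h -0.4002 to 1.04, resistant minus susceptible at 27 h -0.17 to 0.564, resistant minus susceptible at 3 h -0.0207 to 0.244, sun1-1 minus susceptible at 9 h -0.306 to 0.789. THF1 ran over resistant 27 h -0.493 to 0.0525, resistant 9 h -0.163 to 0.116, sun1-1 9 h -0.215 to 0.274, susceptible 27 h -0.184 to 0.0722, susceptible 3 h -0.338 to 0.0557, mean at 27 h minus 3 h -0.0231 to 0.0885. It further ran over mean at 27 h minus 9 h -0.222 to 0.0393, mean at 9 h minus 3 h -0.0624 to 0.0835, resistant minus sun1-1 at 27 h -0.188 to 0.213, resistant minus sun1-1 at 9 h -0.357 to 0.0980, resistant minus susceptible at 27 h -0.565 to 0.205, sun1-1 minus susceptible at 27 h -0.377 to 0.101, sun1-1 minus susceptible at 3 h -0.0655 to 0.164.

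Calls over all features and comparisons were 5, and 65 scaled, 356 weighted, 10 with the block, 3 for features on all 30 arrays, 2 without sun1-1 3 h replicate 3, and 283, 0, 2 and 0 without replicates 1 to 4. At 3 h over the genotypes the 5 became 58, 174, 7, 1, 2, 31, 0, 0 and 0, and 2 with single symbols only. THF1, on 29 arrays, has no value in the fit of features on all 30.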
